A study of Mus musculus with 9 samples.

Results

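The 10 genes described here encode secreted ligands of the TGF-beta, myostatin and activin branches, an extracellular inhibitor of these ligands and their receptors. They were chosen by name from the 54532 genes of the count table, by matching each Ensembl identifier to its symbol, and all 10 were found once and passed the filter on low counts. The ligand genes were Tgfb1, Tgfb2, Tgfb3, Mstn, Gdf11 and Inhba, the inhibitor was Fst, and the receptor genes were Tgfbr1, Tgfbr2 and Acvr2b. RNA was sequenced from the injured tibialis anterior of C57BL/6J mice in 3 groups of 3 libraries. The young PBS group were young mice, 3 to 4 months old per the methods, and the old PBS and old rMETRNL groups were old mice, 24 to 26 months old. All 3 groups had the muscle injured by barium chloride, which destroys muscle fibres and starts their regeneration. The muscles were then injected with PBS in the first 2 groups and with recombinant Meteorin-like protein (rMETRNL), a cytokine made by macrophages among other cells, in the old rMETRNL group. Library numbers are those of the labels, and run 2, 3 and 4 in old PBS. The sources disagree on the sample. The series describes cells in suspension taken at day 4, and the published account describes whole muscle taken at day 8. No library came from uninjured muscle, so changes with injury itself were not measured.

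TGF-beta ligands are secreted in a latent complex, are released from it outside the cell, and bind a pair of kinase receptors whose signal reaches the nucleus through SMAD2 and SMAD3. Myostatin, the product of Mstn, is made mainly by muscle fibres and limits muscle size through activin type II receptors, which activins and GDF11 also use. Follistatin binds activins and myostatin and keeps them from these receptors. In injured muscle TGF-beta is known for its part in fibrosis and in the survival of fibro-adipogenic progenitors.

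The stretches before the start sites of Mstn, Gdf11 and Tgfb1 are shown because Mstn and Gdf11 are close paralogues whose levels spread very differently between libraries, and because Tgfb1 was the TGF-beta ligand whose share in old PBS did not overlap that in the other groups. The sequences are from RefSeq (GRCm38.p6), and 8 of the 10 genes were in that table. Each run is the 250 bases before the start, on the strand of the gene and 5′ to 3′. Capitals mark E-boxes (CANNTG, the same on both strands) and the TATA box letters TATAAA (searched on both strands). The Mstn window is chr1:53061390-53061639 on the plus strand, the Gdf11 window is chr10:128891719-128891968 on the minus strand, and the Tgfb1 window is chr7:25686752-25687001 on the plus strand.
Mstn: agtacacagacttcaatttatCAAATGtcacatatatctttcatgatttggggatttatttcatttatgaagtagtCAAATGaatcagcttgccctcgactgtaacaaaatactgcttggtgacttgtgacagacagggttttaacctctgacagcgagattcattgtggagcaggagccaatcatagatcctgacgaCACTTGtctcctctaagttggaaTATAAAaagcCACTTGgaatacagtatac
Gdf11: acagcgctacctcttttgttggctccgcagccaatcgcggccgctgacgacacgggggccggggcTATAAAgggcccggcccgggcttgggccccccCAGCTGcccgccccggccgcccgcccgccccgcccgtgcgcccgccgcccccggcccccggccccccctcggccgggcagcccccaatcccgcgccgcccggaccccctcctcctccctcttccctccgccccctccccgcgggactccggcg
Tgfb1: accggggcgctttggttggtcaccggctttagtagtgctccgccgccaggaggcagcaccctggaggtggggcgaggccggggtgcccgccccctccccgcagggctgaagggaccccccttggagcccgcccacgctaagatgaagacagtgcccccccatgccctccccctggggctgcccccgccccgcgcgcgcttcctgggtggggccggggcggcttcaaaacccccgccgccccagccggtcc
The Mstn window held 4 E-boxes, letters that muscle regulatory factors among others can bind, and a TATA box beginning 29 bases before the start. The Gdf11 window held 1 E-box and 1 TATAAA, and the Tgfb1 window held neither. Of 32851 RefSeq windows of this length, 66.2% held CANNTG and 12.4% held TATAAA. The GC content was 38.4% for Mstn, 81.2% for Gdf11 and 75.2% for Tgfb1, beside a median of 52.4% over all windows. GC boxes (GGGCGG, both strands, overlaps counted) numbered 0, 8 and 5 in the windows of Mstn, Gdf11 and Tgfb1, and 32.7% of all windows held at least 1. The letters CAGAC, part of the sequence that SMAD proteins bind, occurred in 2 places in the Mstn window and in 0 in the other 2, where 42.2% of all windows held them. These matches describe letters and not binding.

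The libraries held 16238700 to 22522560 counts, and a count of 3, taken as the floor, equalled 0.131 to 0.202 CPM (counts scaled to library size with TMM factors). Muscle fibre genes were abundant in every library, with a summed level of 88500 to 155000 CPM over 10 genes of mature fibres. Old PBS 3 stood apart from the other old PBS libraries. It had the lowest sum of mature fibre genes, 88500 CPM, and the highest sum of 6 genes of new fibres, 3340 CPM against 264 to 1330 CPM in the other 8 libraries. None of the 10 genes of a brain list was at 0 in old PBS, where their summed level was 85.0 to 293 CPM, whereas the sum was 13.3 to 17.6 CPM in young PBS, where Mobp, Snap25 and Nefl were at 0, and 16.3 to 19.1 CPM in old rMETRNL, where Syt1 was at 0 as well. A list of 8 liver genes summed to 13.3 to 94.1 CPM in old PBS, 3.44 to 6.81 in young PBS and 2.60 to 5.84 in old rMETRNL. Since these were bulk samples, fewer cells of a type and less RNA per cell cannot be told apart.

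None of the 10 genes passed an adjusted p-value of 0.05 in any comparison of 2 groups. Between old PBS and young PBS, 0 of 10 passed by edgeR's quasi-likelihood test, beside 0.0643% of the 15560 genes tested, and 0 had an unadjusted p-value under 0.05, beside 5.91% (3.5% higher and 2.42% lower). Between old rMETRNL and old PBS, 0 of 10 passed, beside 0.108% of 15682 genes, and 1, Mstn, had an unadjusted p-value under 0.05, beside 8.07% (3.51% higher and 4.57% lower). Between old rMETRNL and young PBS, 0 of 10 passed, beside 0 of all 15396 genes, and 0 had an unadjusted p-value under 0.05, beside 2.41% (1.38% higher and 1.03% lower). Estimates above 0 were found for 6, 3 and 3 of the 10 genes in these comparisons in the same order, beside 52.1%, 49.3% and 50.2% of all genes tested. DESeq2 also called 0 of the 10 in each comparison, with 265, 354 and 0 calls (0.92%, 1.22% and 0%) over all genes. The calls changed without old PBS 3. Then edgeR called Mstn lower and Tgfb1 higher with rMETRNL, along with 9.76% of all genes tested. The comparisons with old PBS share its 3 libraries, so their values are given side by side and not as independent evidence.

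**Figure D1:**
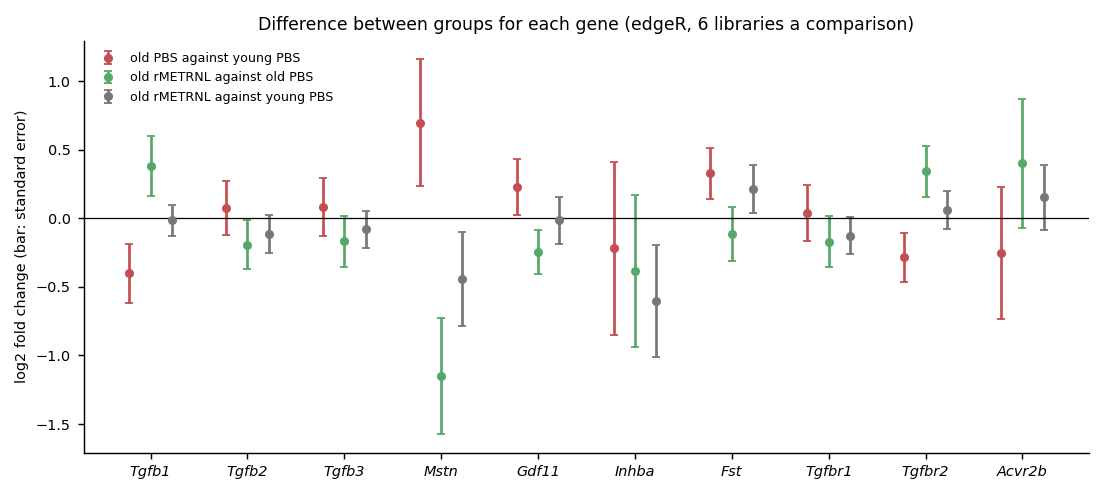
Log2 fold change (vertical axis) of each of the 10 genes (horizontal axis) in the 3 comparisons, with points for the edgeR estimate and bars for the standard error (SE). Mstn has the largest estimate, -1.15 in old rMETRNL against old PBS, and Inhba, Mstn and Acvr2b have the widest bars.

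Levels between genes were compared per length, as RPKM, the CPM divided by the exon length in kilobases. Averaged over the 9 libraries, Tgfb3 was the highest at 16.1 RPKM, followed by Tgfbr2 at 15.2, Mstn at 10.1, Tgfbr1 at 8.90, Tgfb1 at 7.03, Tgfb2 at 4.53, Gdf11 at 3.36, Fst at 3.04, Acvr2b at 2.16 and Inhba at 0.292. Neighbours kept this order in all 9 libraries only for Tgfbr1 over Tgfb1, Tgfb2 over Gdf11 and Acvr2b over Inhba. Tgfb3 was above Tgfbr2 in 6 of 9 libraries, Mstn above Tgfbr1 in 5 and Gdf11 above Fst in 6, so these neighbours did not differ beyond their spread. Tgfbr2 was above Mstn in 7, with a mean log2 ratio of 0.79 and an SD of 0.99. Fst was above Acvr2b in 8, with a mean of 0.595 and an SD of 0.73, so the SD exceeded the mean for both. The highest library exceeded the lowest 5.39-fold for Inhba, 4.02-fold for Mstn and 3.98-fold for Acvr2b, and 1.501-fold to 1.93-fold for the other 7 genes.

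**Figure D2:**
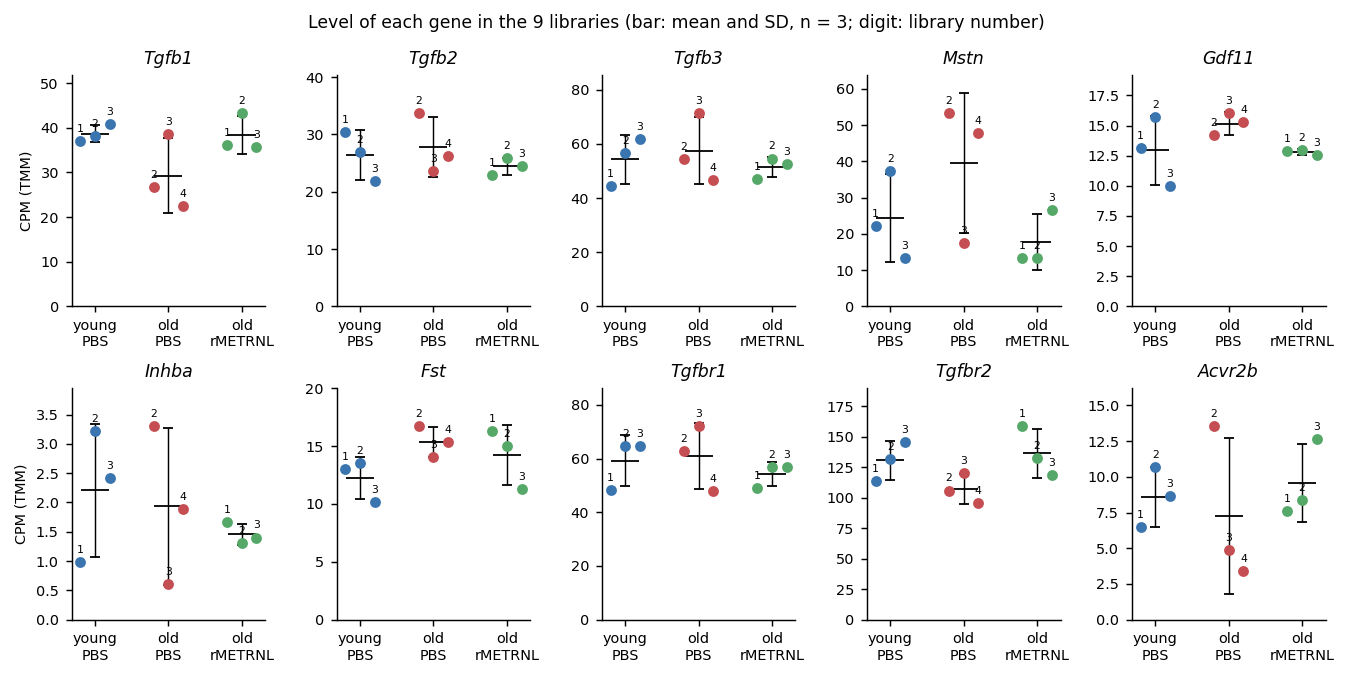
Level of each of the 10 genes in CPM (vertical axes, from 0, each with its own range) in the 9 libraries by group, with points numbered by library, a line for the mean and a bar for the SD (n = 3). Mstn in old PBS 3 lies at 17.4 CPM, apart from 53.3 and 47.8 CPM in the other old PBS libraries.

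Tgfb1 encodes the best studied of the TGF-beta ligands and lies on chromosome 7 from 25687002 to 25705077 (GRCm38, plus strand, ENSMUSG00000002603). Its level was 37.1, 38.2 and 40.8 CPM in young PBS, 26.7, 38.7 and 22.4 CPM in old PBS 2, 3 and 4, and 36.1, 43.3 and 35.6 CPM in old rMETRNL. The levels of old PBS 2 and 4 were the lowest of all 9 libraries, and old PBS 3 lay within the range of both other groups. The mean was 29.3 ± 8.45 CPM (SD, n = 3) in old PBS, 38.7 ± 1.91 in young PBS and 38.3 ± 4.28 in old rMETRNL. Its log2 fold change (with its standard error, SE) came to -0.40 (SE 0.21) in old PBS against young PBS, with an adjusted p of 0.951 by edgeR. It was 0.38 (SE 0.22) in old rMETRNL against old PBS, with an adjusted p of 0.691 by edgeR. Without old PBS 3 the latter was 0.64, with an adjusted p of 0.0440 by edgeR. Between old rMETRNL and young PBS it was -0.01 (SE 0.11). The 8 macrophage and monocyte genes, cells known to make TGF-beta 1, summed to 1080, 1400 and 1080 CPM in old PBS 2, 3 and 4, 1400 to 1670 CPM in young PBS and 1540 to 1810 CPM in old rMETRNL. All 8 had counts in every group, and their part in the Tgfb1 values was not tested.

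Tgfb2 (chromosome 1, 186622792 to 186705989, minus strand) and Tgfb3 (chromosome 12, 86056745 to 86079041, minus strand) encode the other TGF-beta ligands. Tgfb2 stood at 30.5, 27.0 and 21.8 CPM in young PBS, 33.7, 23.6 and 26.3 CPM in old PBS, and 22.9, 25.95 and 24.4 CPM in old rMETRNL. Tgfb3 stood at 44.4, 56.8 and 62.0 CPM in young PBS, 54.5, 71.4 and 46.9 CPM in old PBS, and 47.2, 54.6 and 52.4 CPM in old rMETRNL. The groups overlapped for both genes in every comparison, and the log2 fold changes lay between -0.19 and 0.08. Tgfb3 overlaps Ttll5 on the other strand and the strand setting of the counting is not stated, so reads of the shared stretch cannot be assigned with certainty.

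Per length, Tgfb3 made up most of the TGF-beta ligand RNA, and Tgfb1 held a smaller share in old PBS than in either other group. The share of Tgfb1 in the summed RPKM of Tgfb1, Tgfb2 and Tgfb3 was 28.6%, 26.1% and 26.8% in young PBS, 19.5%, 23.4% and 19.5% in old PBS 2, 3 and 4, and 28.5%, 29.4% and 26.4% in old rMETRNL. All 3 old PBS libraries, old PBS 3 included, lay below all 6 others. In old PBS 3 Tgfb1 itself, at 7.675 RPKM, lay within the range of young PBS, 7.36 to 8.10 RPKM. Tgfb3 was there at 21.1 RPKM, the highest of the 9 libraries, so the low share there went with a high Tgfb3 level. The part of reads shared with Ttll5 in that level was not tested. In old PBS 2 and 4 Tgfb1 was at 5.30 and 4.44 RPKM. The share was 6.41 percentage points below young PBS in old PBS (20.8 ± 2.26% against 27.2 ± 1.30%, SD, n = 3, two-sided exact permutation test, p = 0.1). It was 7.35 points higher in old rMETRNL (28.1 ± 1.54%, SD, n = 3) than in old PBS (exact permutation test, p = 0.1). Adjusted over the 9 tests made within libraries, both exact p-values were 0.45. With 3 libraries against 3 the exact test cannot give less than 0.1, so neither difference could pass 0.05. Between old rMETRNL and young PBS the difference was 0.932 points (exact permutation test, p = 0.5). Leaving out any 1 library kept the first 2 differences between -7.72 and -5.69 points and between 6.69 and 8.65 points. The share of Tgfb3 ran from 50.9% to 64.2% and that of Tgfb2 from 12.4% to 21.4% over the 9 libraries. That of Tgfb3 was 59.2% to 64.2% in old PBS, above 55.3% to 57.9% in old rMETRNL, and overlapped 50.9% to 60.7% in young PBS.

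**Figure D3:**
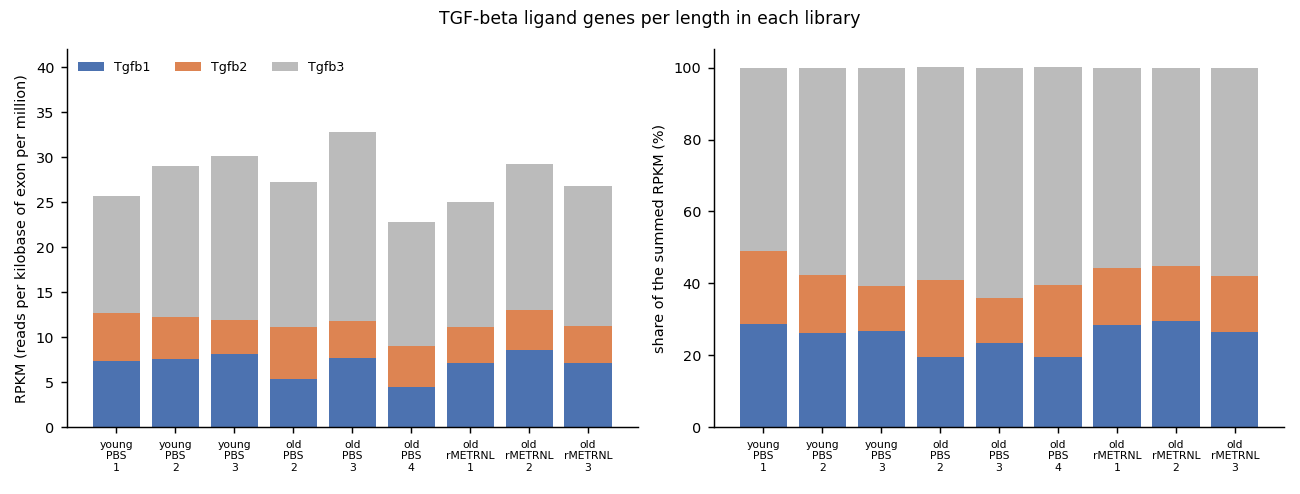
Level per length in RPKM (left) and share of the summed RPKM in percent (right) of Tgfb1, Tgfb2 and Tgfb3, as stacked bars for each of the 9 libraries. The share of Tgfb1, at the base of each right bar, is 19.5% to 23.4% in old PBS and 26.1% to 29.4% in the other 6 libraries.

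Mstn lies on chromosome 1 from 53061640 to 53068079 (plus strand, ENSMUSG00000026100). Its level was 22.3, 37.3 and 13.3 CPM in young PBS, 53.3, 17.4 and 47.8 CPM in old PBS 2, 3 and 4, and 13.3, 13.3 and 26.6 CPM in old rMETRNL. Old PBS 2 and 4 were the highest of the 9 libraries, and old PBS 3 lay within the range of both other groups. The means were 24.3 ± 12.1 CPM (SD, n = 3) in young PBS, 39.5 ± 19.3 in old PBS and 17.8 ± 7.68 in old rMETRNL. With rMETRNL, against old PBS, the estimate was -1.15 (SE 0.42) on the log2 scale, a 2.22-fold lower level, with an unadjusted p of 0.0237 and an adjusted p of 0.514 by edgeR. DESeq2 gave -1.17 with an adjusted p of 0.146. Old PBS against young PBS gave 0.70 (SE 0.46, adjusted p = 0.994, edgeR), and old rMETRNL against young PBS gave -0.44 (SE 0.34).

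The Mstn difference with rMETRNL changed its call with old PBS 3 and with the filter. Without old PBS 3 the log2 fold change was -1.505 (SE 0.27) with an adjusted p of 0.0120 by edgeR, and both remaining old PBS libraries lay above all 3 of old rMETRNL. With any other library left out it lay between -1.57 and -0.87, with an adjusted p of at least 0.426 by edgeR. With no filter on low counts the estimate was -1.13 and the adjusted p was 0.000218 by edgeR, in a fit that called 740 genes (2.55%). Over the alternatives that kept all libraries the adjusted p of Mstn ran from that value to 0.9999. In old PBS against young PBS, leaving out old PBS 3 gave 1.05, with an adjusted p of 0.142 by edgeR.

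**Figure D4:**
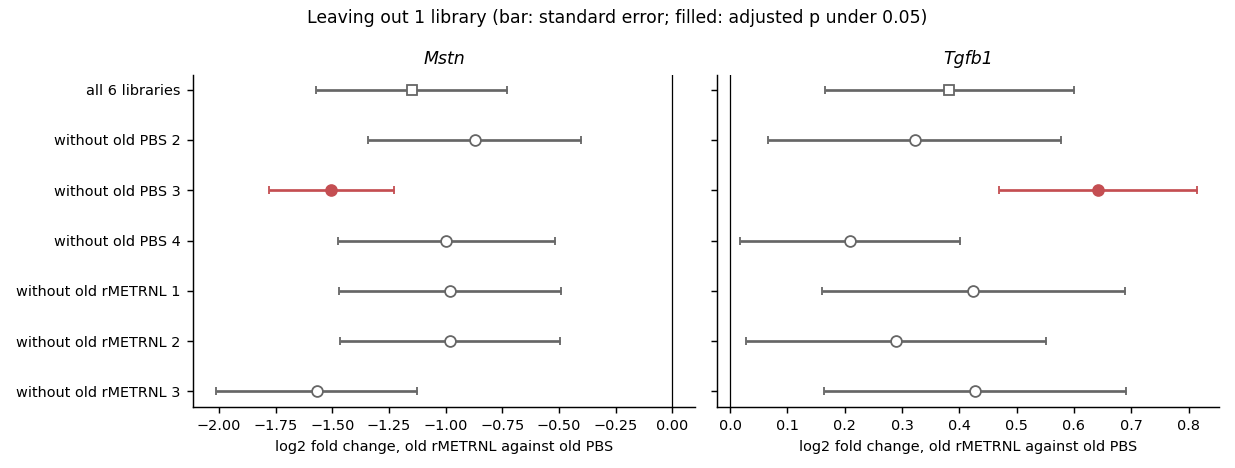
Log2 fold change of Mstn (left) and Tgfb1 (right) in old rMETRNL against old PBS (horizontal axes) with all 6 libraries and with each library left out in turn, with bars for the SE and red filled points for an adjusted p under 0.05 by edgeR. Without old PBS 3 the estimates are -1.505 and 0.64, and these are the only filled points.

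Mstn RNA is made in muscle fibres, so its level was also set against 10 genes of mature fibres in the same library. Those genes summed to 140000, 88500 and 155000 CPM in old PBS 2, 3 and 4, so that old PBS 3 was the lowest of the group for the fibre genes and for Mstn. The log2 ratio of Mstn to the mean of the fibre genes was -7.48, -8.49 and -7.73 in old PBS, -8.80, -8.00 and -9.26 in young PBS, and -9.31, -9.34 and -8.49 in old rMETRNL. Old PBS 3 equalled old rMETRNL 3 at -8.49, and the other old PBS libraries were the highest of the 9. The difference was -1.14 in old rMETRNL against old PBS (two-sided exact permutation test, p = 0.2) and 0.79 in old PBS against young PBS (exact permutation test, p = 0.2) beside -1.15 and 0.70 for Mstn by itself. The brain list summed to 242, 85.0 and 293 CPM in old PBS 2, 3 and 4, so that it too was lowest in old PBS 3. The part of those transcripts in the Mstn values was not tested.

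Gdf11, the paralogue of Mstn, lies on chromosome 10 from 128882295 to 128891718 (minus strand, ENSMUSG00000025352) and varied far less. Its level was 13.1, 15.8 and 9.98 CPM in young PBS, 14.2, 16.03 and 15.3 CPM in old PBS, and 12.9, 13.0 and 12.6 CPM in old rMETRNL. The 3 old rMETRNL libraries lay close together and below all of old PBS, which made Gdf11 the only 1 of the 10 genes without overlap in this comparison, beside 12.7% of all genes tested (6.99% higher and 5.69% lower). The log2 fold change there was -0.25 (SE 0.16) with an adjusted p of 0.726 by edgeR. Young PBS overlapped both old groups.

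Inhba, which encodes the subunit that pairs into activin A, was the scarcest of the 10 genes, with 14 to 58 counts a library. It lies on chromosome 13 from 16011851 to 16031621 (plus strand). Its level was 0.982, 3.22 and 2.42 CPM in young PBS, 3.30, 0.612 and 1.89 CPM in old PBS, and 1.66, 1.30 and 1.40 CPM in old rMETRNL. Young PBS and old PBS covered nearly the same range, and old rMETRNL lay inside it. The log2 fold change was -0.22 (SE 0.63) in old PBS against young PBS, -0.39 (SE 0.55) in old rMETRNL against old PBS and -0.60 (SE 0.41) in old rMETRNL against young PBS.

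Fst encodes follistatin and lies on chromosome 13 from 114452290 to 114458951 (minus strand, ENSMUSG00000021765). Its level was 13.0, 13.5 and 10.2 CPM in young PBS, 16.7, 14.1 and 15.3 CPM in old PBS, and 16.3, 15.0 and 11.3 CPM in old rMETRNL. All of old PBS lay above all of young PBS, and Fst was the only 1 of the 10 genes without overlap in that comparison, beside 10.5% of all genes tested (5.26% higher and 5.25% lower). The log2 fold change was 0.33 (SE 0.19) with an adjusted p of 0.971 by edgeR. Old rMETRNL overlapped both other groups, with estimates of -0.12 (SE 0.20) against old PBS and 0.21 (SE 0.18) against young PBS. Against young PBS, 0 of the 10 genes were without overlap in old rMETRNL, beside 6.9% of all genes tested (3.94% higher and 2.96% lower). The log2 ratio of the CPM of Inhba to that of Fst was -2.62 ± 0.96 in young PBS, -3.30 ± 1.12 in old PBS and -3.28 ± 0.26 in old rMETRNL (SD, n = 3). The exact permutation p-values were 0.5 for old PBS against young PBS, 0.9 for old rMETRNL against old PBS and 0.4 for old rMETRNL against young PBS, and per length Fst exceeded Inhba in every library.

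Among the receptors, Tgfbr2 encodes the type II receptor that binds TGF-beta directly and had the most counts of the 10 genes. It lies on chromosome 9 from 116084293 to 116175360 (minus strand). Its level was 114, 132 and 146 CPM in young PBS, 106, 120 and 95.7 CPM in old PBS, and 158, 132 and 119 CPM in old rMETRNL. Old PBS 2 and 4 were again the lowest of the 9 libraries, and old PBS 3 at 120.2 CPM lay above the lowest library of each other group. Old PBS against young PBS gave an estimate of -0.28 (SE 0.18, adjusted p = 0.994, edgeR). It was 0.34 (SE 0.18, adjusted p = 0.681, edgeR) in old rMETRNL against old PBS. Without old PBS 3 the latter was 0.44, with an adjusted p of 0.147 by edgeR.

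Tgfbr1 encodes the type I kinase that works with the Tgfbr2 product and lies on chromosome 4 from 47353222 to 47414931 (plus strand). Its level was 48.3, 64.6 and 64.8 CPM in young PBS, 62.9, 71.9 and 47.9 CPM in old PBS, and 49.0, 57.0 and 56.9 CPM in old rMETRNL. The groups overlapped, with estimates of 0.04, -0.17 and -0.13 in the 3 comparisons. Acvr2b, a type II receptor for activins and myostatin, lies on chromosome 9 from 119402118 to 119434995 (plus strand). Its level was 6.47, 10.7 and 8.63 CPM in young PBS, 13.5, 4.85 and 3.40 CPM in old PBS, and 7.60, 8.37 and 12.7 CPM in old rMETRNL. Old PBS held both the highest and the lowest library, and the estimate of 0.40 in old rMETRNL against old PBS had an SE of 0.47. With each library left out this estimate ran from 0.059 to 1.202. Acvr2b overlaps Gm47320 on the other strand, a gene with 90 counts over all libraries.

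The other genes of the pathway were read from 7 lists with 68 genes, of which 64, 64 and 63 could be tested in the 3 comparisons. By edgeR 0 of them passed an adjusted p-value of 0.05 in each comparison. With no filter on low counts edgeR called 0 of 67 in old PBS against young PBS, beside 1.23% of all genes. In old rMETRNL against old PBS it then called 2 of 67, Bmp1 higher (adjusted p = 0.0173, edgeR) and Wfikkn2 lower (0.0166), beside 2.55%. In old rMETRNL against young PBS it called 2 of 67, Thbs1 (0.000681) and Ltbp2 (0.00313), both lower, beside 0.467%. Old rMETRNL lay inside the range of young PBS for Thbs1 (27.1 to 43.9 in 20.0 to 108 CPM) and for Ltbp2 (6.53 to 10.7 in 3.99 to 28.3 CPM). With the filter both had an adjusted p of 0.9996 by edgeR. With each library left out their estimates ran from -1.05 to 0.21 and from -1.24 to 0.048. An unadjusted p-value under 0.05 was reached by 10 of 64 genes (15.6%) in old PBS against young PBS, 2 higher and 8 lower, beside 5.91% of all genes. With rMETRNL against old PBS it was reached by 12 of 64 genes (18.8%), 9 higher and 3 lower, beside 8.07% of all genes. With rMETRNL against young PBS it was reached by 3 of 63 genes (4.76%), beside 2.41%. With each library left out, the number of pathway genes with an unadjusted p-value under 0.05 moved, as did that over all genes. In old PBS against young PBS the lowest was 0 of 64 without young PBS 3, beside 618 of all 16238 genes. The highest was 22 of 65 without old PBS 3, beside 3322 of 15884. In old rMETRNL against old PBS the lowest was 2 of 65 without old rMETRNL 1, beside 800 of all 16418 genes. The highest was 24 of 64 without old PBS 3, beside 4410 of 15981. In old rMETRNL against young PBS the lowest was 1 of 65 without old rMETRNL 2, beside 298 of all 15803 genes. The highest was 10 of 65 without old rMETRNL 3, beside 841 of 15814. The median log2 fold change of the tested pathway genes was -0.05, 0.03 and -0.03 in the 3 comparisons, beside medians of 0.01, -0.01 and 0.00 over all genes. DESeq2 called 0, 1 and 0 of the 67 pathway genes it tested, beside 0.92%, 1.22% and 0% of all genes. The 1 gene (1.49%) was Fstl1, above old PBS in old rMETRNL with an adjusted p of 0.0450 by DESeq2 and 0.406 by edgeR.

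**Figure D5:**
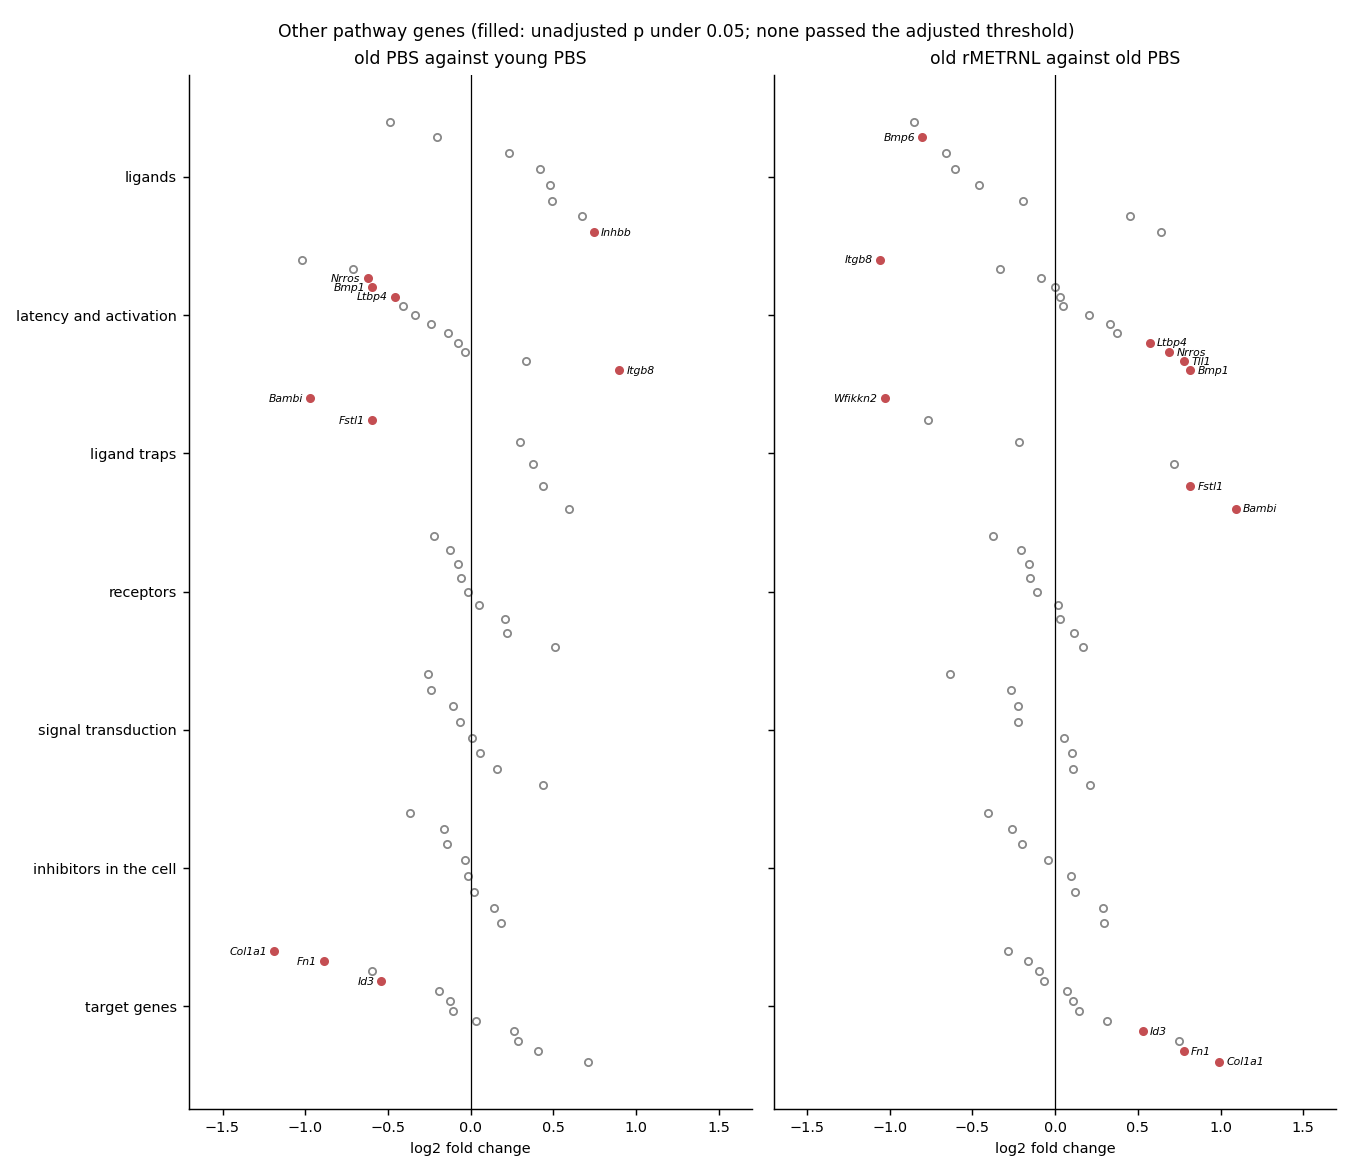
Log2 fold change (horizontal axes) of the tested genes of the 7 pathway lists (rows, genes spread vertically within a row) in old PBS against young PBS and in old rMETRNL against old PBS, with filled red points and names for an unadjusted p under 0.05 by edgeR. None passed the adjusted threshold. The 2 panels share the old PBS libraries.

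Of 13 genes that hold TGF-beta latent or release it, 4 had an unadjusted p-value under 0.05 in old PBS against young PBS (1 higher and 3 lower), beside 5.91% of all genes, and 5 in old rMETRNL against old PBS (4 higher and 1 lower), beside 8.07%. In the first comparison 2 of the 13 had an estimate above 0, beside 52.1% of all genes, and in the second 9 of 13, beside 49.3%, with medians of -0.34 and 0.20. Some marker lists of other cells had estimates in the same directions and some in the opposite ones. All 8 macrophage and monocyte genes were below 0 in the first comparison and above 0 in the second, with medians of -0.31 and 0.39, and so were all 6 endothelial genes, with medians of -0.41 and 0.42. Of the T cell genes 5 of 6 were above 0 in the first and 1 of 5 in the second, with medians of 1.07 and -1.01. Of the new fibre genes 5 of 6 and then 1 of 6 were above 0, with medians of 0.50 and -0.59. The endothelial genes summed to 351 to 430 CPM in young PBS, 234 to 364 in old PBS and 335 to 463 in old rMETRNL. All of these markers had counts in every group, and the part of these cells in the values was not tested. Ltbp4, a matrix protein that binds the latent complex and the highest gene of this list per length, was at 171, 182 and 169 CPM in young PBS, 140, 135 and 107 in old PBS, and 225, 178 and 164 in old rMETRNL. Old PBS lay below both other groups without overlap. Its log2 fold changes were -0.46 (SE 0.18, adjusted p = 0.751, edgeR) and 0.57 (SE 0.20, adjusted p = 0.482, edgeR).

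Bmp1 encodes a protease that cleaves procollagens and LTBP1, and was at 109, 112 and 124 CPM in young PBS, 63.2, 101 and 63.7 in old PBS, and 166, 126 and 112 in old rMETRNL. Its log2 fold changes were -0.60 (SE 0.22, adjusted p = 0.715, edgeR) and 0.82 (SE 0.25, adjusted p = 0.384, edgeR). Nrros, which anchors latent TGF-beta on macrophages, was at 26.1, 23.8 and 27.4 CPM in young PBS, 14.1, 22.5 and 13.5 in old PBS, and 31.4, 25.5 and 24.4 in old rMETRNL. Neither gene overlapped between old PBS and the other groups, and old PBS 3 was the highest old PBS library for both. Tll1, a relative of Bmp1, had an estimate of 0.78 (SE 0.34) in old rMETRNL against old PBS. Itgb8, an integrin chain that releases TGF-beta, went the other way, at 1.16, 1.72 and 1.47 CPM in young PBS, 3.23, 2.45 and 2.45 in old PBS, and 1.12, 1.07 and 1.67 in old rMETRNL, with 19 to 56 counts a library.

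Of the other ligands, Inhbb, the second activin chain, had an estimate of 0.74 (SE 0.33) in old PBS against young PBS, and Bmp6 an estimate of -0.80 (SE 0.30) in old rMETRNL against old PBS. Bmp6 overlaps Txndc5, so its counts are uncertain. Inha, the inhibin alpha chain, was the highest of these ligands per length, at 6.52 RPKM. Among the ligand traps, Fstl1, a secreted follistatin relative of stromal cells, was at 565, 507 and 633 CPM in young PBS, 366, 466 and 296 in old PBS, and 825, 610 and 555 in old rMETRNL, without overlap between old PBS and the other groups. Its log2 fold changes were -0.60 (SE 0.23) and 0.82 (SE 0.26). Bambi, a receptor without a kinase that dampens the signal, had 2.22, 2.40 and 2.26 CPM in old PBS and 3.66 to 5.73 CPM in old rMETRNL, an estimate of 1.09 (SE 0.28, adjusted p = 0.278, edgeR). Wfikkn2, a secreted protein that binds myostatin and GDF11, was at 15.1, 5.94 and 13.6 CPM in old PBS 2, 3 and 4 and 4.23, 5.82 and 6.88 CPM in old rMETRNL, with old PBS 3 inside the range of old rMETRNL as for Mstn. With rMETRNL the estimate was -1.03 (SE 0.35, adjusted p = 0.471, edgeR).

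The other receptors, the SMADs and the inhibitors inside the cell held few genes with a low p-value. Of 9 receptors and 8 genes of signal transduction, 0 had an unadjusted p-value under 0.05 by edgeR in any comparison with all libraries. Over all genes the shares were 5.91%, 8.07% and 2.41% in the 3 comparisons. Without old PBS 3, Zfyve9, which brings SMAD2 and SMAD3 to the receptors, was called lower in old rMETRNL against old PBS, with an estimate of -0.91 and an adjusted p of 0.0158 by edgeR. The highest of these lists per length were Bmpr1a at 18.1 RPKM and Map3k7 at 14.7 RPKM. Among 8 inhibitors inside the cell, Ski, the highest per length at 15.1 RPKM, did not reach that mark. Between old rMETRNL and young PBS, Smad7 had an estimate of -0.55 (SE 0.18), Pmepa1 one of 0.28 (SE 0.10), and Fstl3, with 3 to 22 counts a library, one of 1.10 (SE 0.46), each with an adjusted p of 0.9996 by edgeR.

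Of 12 genes known to respond to the pathway, 3 had an unadjusted p-value under 0.05 in each comparison with old PBS. They were Col1a1, Fn1 and Id3 both times, beside 5.91% and 8.07% of all genes. Col1a1, a chain of type I collagen and the highest of the list at 354 RPKM, had estimates of -1.19 (SE 0.45) in old PBS against young PBS and 0.99 (SE 0.42) in old rMETRNL against old PBS. Fn1, fibronectin, had estimates of -0.89 (SE 0.36) and 0.78 (SE 0.27). Id3, a target of the BMP branch, had estimates of -0.54 (SE 0.21) and 0.53 (SE 0.22). The medians of the list were -0.12 and 0.13. A list of 8 fibro-adipogenic cell genes, cells that make collagen, summed to 2060 to 2730 CPM in young PBS, 1840 to 3140 in old PBS and 2490 to 3380 in old rMETRNL, and a list of 6 tendon genes to 295 to 628, 205 to 253 and 330 to 392 CPM. In old rMETRNL against old PBS, 7 of the 8 fibro-adipogenic genes had an estimate above 0, beside 49.3% of all genes, with a median of 0.49. Of the 8, 5 had an unadjusted p-value under 0.05, beside 8.07%, and 4 did not overlap, beside 12.7%. In old PBS against young PBS 4 of the 8 were above 0, beside 52.1% of all genes, with a median of -0.10. Of the 8, 1 had an unadjusted p-value under 0.05, beside 5.91%, and 3 did not overlap, beside 10.5%. Of the 6 tendon genes 1, Scx, was above 0 in old PBS against young PBS, beside 52.1% of all genes, with a list median of -1.06. In old rMETRNL against old PBS 5 of the 6, all but Scx, were above 0, beside 49.3%, with a list median of 0.72. The part of fibro-adipogenic and tendon cells in the pathway values was not tested. Without old PBS 3, edgeR called 11 of 64 pathway genes (17.2%) in old rMETRNL against old PBS, 8 higher (Bambi, Bmp1, Cilp, Col1a1, Fn1, Fstl1, Id3 and Nrros) and 3 lower (Bmp6, Wfikkn2 and Zfyve9), beside 9.76% of all genes, and 2 of 65, Bmp1 and Nrros, in old PBS against young PBS, beside 2.52%.

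As a description, the genes whose log2 CPM followed each of the 10 most closely over the 9 libraries were found among 16124 genes. For Mstn they were Hlf (Pearson r = 0.992), Ttll7 (0.991) and Syt9 (0.984), and for Tgfb1 they were Gm16758 (0.995), Ints6l (0.991) and Tpcn2 (0.985). For Tgfbr2 they were Cap1 (0.988), Papln (0.975) and Pi4kb (0.972). For Tgfb3 they were Lacc1 (0.976), Dock5 (0.968) and Tgfbr1 (0.950). The highest r was lower for Fst (Ces1f, 0.935) and Gdf11 (Mrap, 0.904). Among the 10 genes themselves, Tgfb3 and Tgfbr1 had the highest r, 0.950, and Tgfb1 and Mstn the lowest, -0.798. The 9 points share group, depth and cell makeup, and no p-value is given.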

How the data were processed

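RNA-seq counts of 9 libraries were used, with 3 libraries a group. The authors deposited raw counts, the whole number of reads on each Ensembl gene, with replicates kept apart and no normalization. The submitters' notes name STAR, featureCounts and mm9, and their versions and strand setting are not given in the sources used here. The kit was NEBNext Ultra, per the methods. Symbols, coordinates and exon lengths came from an annotation of GRCm38, which matched 54495 of 54532 identifiers. No sample column was left unmapped. Nothing in the labels says that libraries of a group were separate animals, so p-values measure the spread between these samples, and no batch is given.

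Each pair of groups was fitted on its own 6 libraries (edgeR 4.0.16, R 4.3.3, filterByExpr, TMM, glmQLFit and glmQLFTest, Benjamini-Hochberg over all genes tested, threshold 0.05). The methods name DESeq2, which was run with its defaults (1.42.0) as an alternative. The other alternatives were DESeq2 size factors, no filter, at least 10 counts in every library, all 9 libraries in 1 fit, the replicate number as a block and each library left out. CPM used TMM factors of all 9 libraries, and RPKM divides CPM by the union of exons. Log2 CPM for correlations had a prior count of 2. Floors cover counting error only. Values within a library were compared by two-sided exact permutation tests (scipy 1.17.1). The edgeR script was tested on simulated data. Replicates of a group differed by more than sampling noise.

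The 10 genes, the pathway and marker lists and the tests were chosen with earlier results of these data known. Named besides the 10 genes are pathway genes with an unadjusted p under 0.05 and the highest of each list per length, and up to 3 genes of highest r for each of the 10. Zfyve9, Cilp, Thbs1 and Ltbp2 were named after their values were seen, for calls under an alternative.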

Additional observations from a re-analysis of the deposited data

How the results depend on the processing

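Of the calls on the 10 genes, 0 changed with DESeq2 size factors, a minimum of 10 counts, all 9 libraries in 1 fit, the replicate block or DESeq2's test. With no filter on low counts, 1 gene (Mstn) was called in old rMETRNL against old PBS, and with each library left out 0 to 2, where old PBS 3 gave Mstn and Tgfb1. The number of genes called over the whole table moved more. In old PBS against young PBS it was 354 with no filter, 3 with at least 10 counts, 63 with all 9 libraries, 265 with DESeq2 and 2 to 401 with each library left out, where 401 was without old PBS 3. In old rMETRNL against old PBS it was 740 with no filter, 1 with at least 10 counts, 71 with all 9 libraries, 65 with the replicate block, 354 with DESeq2 and 3 to 1560 with each library left out, where 1560 was without old PBS 3. In old rMETRNL against young PBS it was 132 with no filter and 0 to 1 with each library left out. The cause of these moves was not tested.

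Whether the numbers of the labels pair the libraries is not stated, and the correlations of same-numbered deviations did not settle it. They were 0.114 and 0.412 between old and young PBS, -0.0486 and -0.316 between old rMETRNL and old PBS, and -0.178 to 0.0231 between old rMETRNL and young PBS. The replicate block turned Gdf11 in old rMETRNL against young PBS from -0.01 to 0.0090. It gave 11, 65 and 0 genes called in the 3 comparisons, beside 10, 17 and 0 without the block. With it, 9 of 64, 0 of 64 and 2 of 63 other pathway genes had an unadjusted p under 0.05. Over all genes tested these were 919 of 15560, 477 of 15682 and 287 of 15396.

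With each library left out, estimates near 0 crossed it. In old PBS against young PBS the log2 fold changes ran from -1.05 to 0.079 for Acvr2b, -0.85 to 0.22 for Inhba, -0.084 to 0.19 for Tgfb2, -0.11 to 0.21 for Tgfb3 and -0.10 to 0.19 for Tgfbr1. In old rMETRNL against old PBS they ran from -0.23 to 0.020 for Fst, -0.83 to 0.24 for Inhba and -0.31 to 0.020 for Tgfb3, and the log2 ratio of Inhba to Fst from -0.60 to 0.50. In old rMETRNL against young PBS they ran from -0.11 to 0.34 for Acvr2b, -0.17 to 0.15 for Gdf11, -0.86 to 0.0057 for Mstn, -0.11 to 0.035 for Tgfb1, -0.21 to 0.024 for Tgfb3 and -0.058 to 0.15 for Tgfbr2. The direction of Mstn, Tgfb1 and Tgfbr2 in both comparisons with old PBS, and the direction of the Tgfb1 share, held under every alternative run.

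With 3 libraries a group, exact tests cannot go below 0.1. The calls of Mstn and Tgfb1 changed without old PBS 3, and that of Mstn also with no filter. Fstl3, with 3 to 22 counts a library, reached down to the floor of 3 counts.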
